A study of Ovis aries with 16 samples.

Results

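Methylation peaks were thinly spread over 500 windows of the sheep genome, and the regions in those windows are described here. A region was a stretch in which the peaks of the fetuses overlapped by at least 1 bp and in which at least 2 fetuses had a peak. Chromosomes 1 to 26, the sheep autosomes, were divided into 24507 complete windows of 100000 bp, and each region was assigned to a window by its midpoint. The windows were chosen by their number of regions, taking the 500 with the lowest counts of 1 or more, so the low count itself is a property of the choice and not a result. They held 1858 of the 512238 regions of the series, or 0.363%, on 2.04% of the windows. Positions refer to Oar_v3.1, with region starts and ends as the deposited peaks give them.

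The samples were longissimus dorsi (LD) muscle from 16 fetuses of Polypay ewes. Of the fetuses, 8 came from ewes fed hay (alfalfa haylage) and 8 from ewes fed corn with some haylage. The diets were fed from mid-gestation to necropsy in late gestation. Both diets supplied equal metabolizable energy, and only the corn diet held a supplement. As the study lists them, the hay diet gave more crude protein, methionine, serine and choline, and the corn diet gave more folate. There was no untreated group. In the supplement of the study, all 8 hay fetuses and most corn fetuses were twins of another fetus in the set. Each diet therefore had fewer ewes than fetuses. The labels do not tie the numbered samples to ewes, sexes or sequencing lanes. All p-values over fetuses thus treat twins as independent and can be too small. Fetuses had 261331 to 519923 peaks, and the sequencing depth behind them is unknown.

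The measurement used a methyl-binding domain (MBD) protein, which holds DNA fragments that carry methylated CpG sites, and the fragments it held were sequenced. The signal of this method rises with both the methylation and the density of CpG sites, so a stretch with few CpG sites gives little signal even where the sites it has are methylated. Most CpG sites of mammalian muscle DNA are methylated, whereas CpG islands, the CpG-rich stretches at many promoters, are mostly free of methylation. The CpG content, assembly gaps and genes of the windows were not analysed here, and no sequence of Oar_v3.1 was read.

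The number of regions per window had a median of 19 over all complete windows, with 13 at the 25th and 27 at the 75th percentile and 52 in the fullest window. The sparse windows held 1 region in 23 cases, 2 in 62, 3 in 97, 4 in 170 and 5 in 148. At the upper edge, 319 windows had 5 regions, and the 171 that were not taken lost the tie because of a higher chromosome number or start. Those tied windows held regions with a peak in a median of 6 fetuses and a median width of 621 bp, against 7 fetuses and 685.5 bp in the windows with 5 regions that were taken. The next count up, 6 regions, was found in 424 windows, with medians of 6 fetuses and 638 bp. Below the lower edge lay 10 windows without any region.

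**Figure D1:**
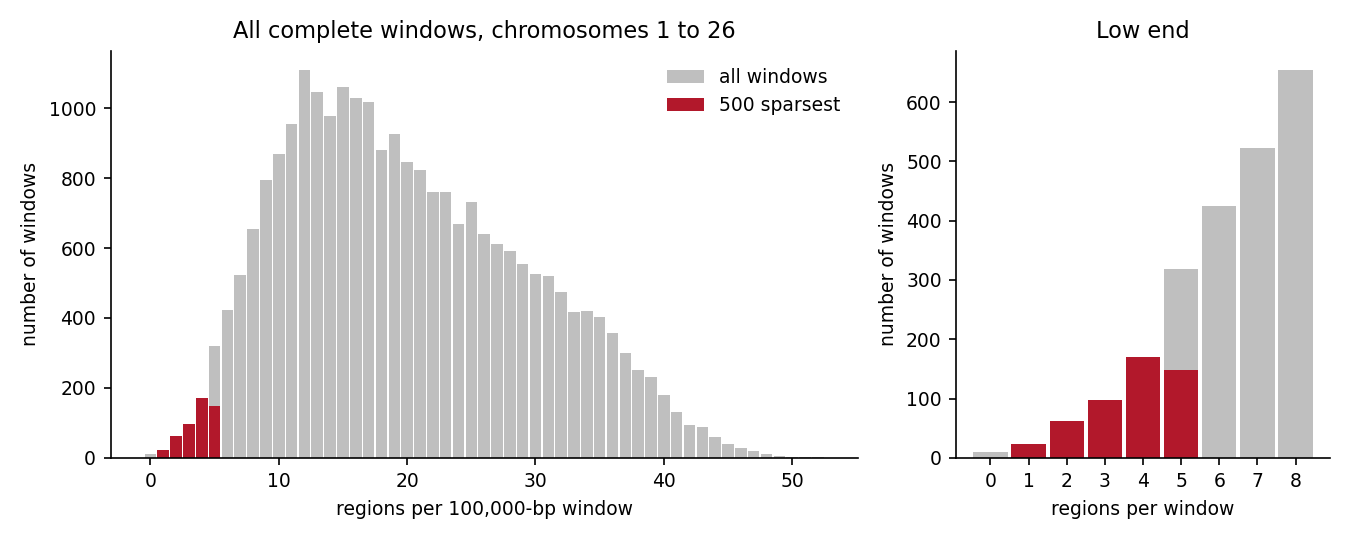
Number of windows (vertical axis) with each number of regions per 100000-bp window (horizontal axis), for all 24507 complete windows in grey and the 500 sparsest in red, with the low end enlarged on the right. The sparse windows take all windows with 1 to 4 regions and 148 of the 319 with 5.

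Regions covered a median of 2.28% of a sparse window, with a range of 0.156% to 11.4%, and a median of 13.1% of the other windows. The longest stretch of a sparse window without a peak of any fetus had a median of 34.6 kb and ranged from 16.4 to 93.9 kb. In the other windows its median was 13.9 kb. A peak-free stretch of over 50 kb was found in 81 of the 500 sparse windows (16.2%) and in 0.229% of the others. The distance from a region to its nearest neighbour had a median of 8.66 kb in the sparse windows and 0.728 kb elsewhere. These values follow in large part from the low counts and are given as a description.

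Windows chosen in the fetuses of 1 diet were also sparse in the fetuses of the other. When 500 windows were chosen in the same way from the 8 hay fetuses alone, the 8 corn fetuses had 2.43 ± 0.568 peaks (SD, n = 8) per chosen window and 15.9 ± 2.75 per other window. Each of the 8 corn fetuses had fewer peaks in the chosen windows, at a median of 14.8% of the number elsewhere and a range of 13.6% to 17.4%. When the windows were chosen from the corn fetuses, the 8 hay fetuses had 2.34 ± 0.827 peaks (SD, n = 8) per chosen window and 16.3 ± 3.56 per other window. All 8 hay fetuses had fewer there, at a median of 14.1% and a range of 10.4% to 16.7%. Of the 500 windows described here, 293 were among those chosen from hay and 296 among those chosen from corn.

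Sparse windows were unevenly spread over the chromosomes. Because ties were broken by chromosome number, the spread is best read from all 671 windows with 1 to 5 regions. Chromosome 21 had 46 of them, or 9.2% of its windows, followed by chromosome 11 with 41 (6.59%) and chromosome 10 with 50 (5.79%). Chromosome 7 had the lowest share, with 7 windows (0.7%), and chromosome 1, the longest, had 24 (0.871%). The median window of chromosome 11 nevertheless held 23 regions, against 19 over all chromosomes.

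**Figure D2:**
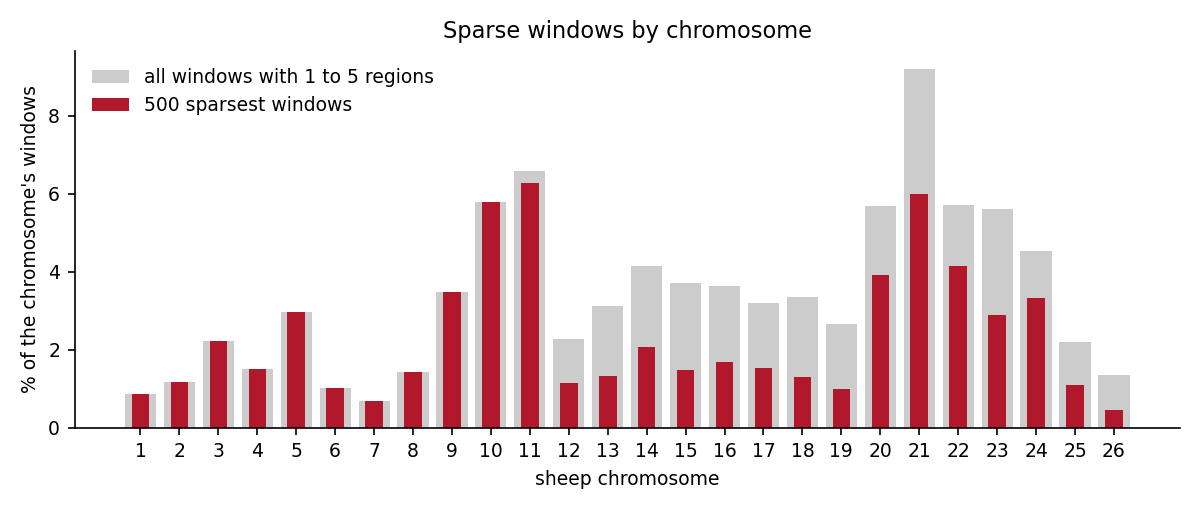
Share of each chromosome's windows (vertical axis, %) that were sparse, for chromosomes 1 to 26 (horizontal axis). Red bars are the 500 sparsest windows and grey bars all 671 windows with 1 to 5 regions; the red bars fall short of the grey ones from chromosome 11 on, where the tie was broken.

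One stretch stood out at the start of chromosome 11, and its limits were set after the values had been seen. Of the 42 windows from its start to position 4200000, 32 were among the 500 sparsest and 4 had no region at all, and the fullest window had 23 regions. The median was 3 regions per window there and 24 in the other 580 windows of the chromosome, of which 7 were sparse. The 32 windows held 98 regions, of which the median one was marked in 5 fetuses, and 8 of the 98 had a peak in all 16. Hay fetuses had a peak in 30 to 46 of the 98 regions (median 37) and corn fetuses in 31 to 53 (median 48), so the diets overlapped.

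The longest runs of adjacent sparse windows lay in this stretch. Both runs of 9 windows were there, from 600001 to 1500000 with 24 regions and from 2000001 to 2900000 with 28 regions, and a run of 6 windows followed from 3000001 to 3600000 with 23 regions. Windows without any region bordered the first run on both sides, from 500001 to 600000 and from 1500001 to 1600000. The window directly before the second run, from 1900001 to 2000000, also held none. The rule left such windows out, so these limits of the runs were set by the rule. The median region of the first run was marked in 3.5 fetuses, and 2 of the 24 had a peak in all 16. Hay fetuses had a peak in 6 to 10 of these 24 regions (median 7) and corn fetuses in 6 to 14 (median 11.5). In the second run the median was 7 fetuses per region, with 10 to 16 of the 28 regions marked in a hay fetus (median 12) and 9 to 20 in a corn fetus (median 14.5). In the third run no region was marked in all fetuses, and the numbers were 6 to 11 of 23 in hay (median 8) and 4 to 12 in corn (median 10). The ranges of the diets overlapped in all 3 runs.

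Most of the 500 windows had no other of the 500 directly beside them. They formed 389 runs, of which 323 were single windows, 45 were pairs and 21 were longer. In these runs, 177 windows (35.4%) had another of the 500 as a neighbour. Any of the 10 windows without a region or the 171 tied windows not taken broke a run. These numbers therefore depend in part on the rule, and how many runs were broken in this way was not counted. The surroundings of the 500 windows were thin. The windows directly beside a sparse window had a median of 8 regions on either side, and 26.8% and 28.2% of them had 5 or fewer, against 2.78% of all windows. At 1 Mb the medians were 11 and 10 regions on the 2 sides, and at 2 Mb they were 13 on both, still below the genome-wide 19. The counts of the neighbouring windows did not enter the rule except through the neighbours that were sparse themselves.

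**Figure D3:**
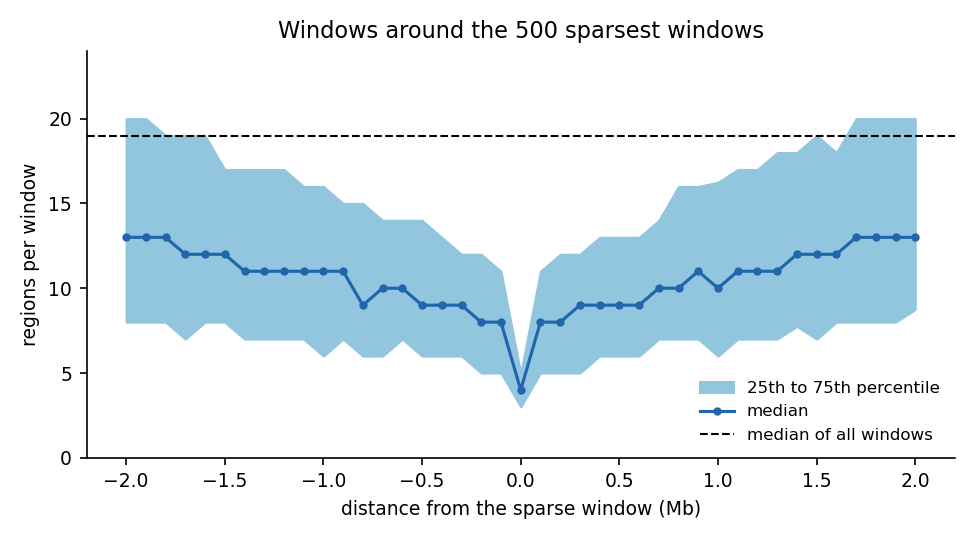
Regions per window (vertical axis) against the distance from a sparse window in Mb (horizontal axis), as the median (line) and the 25th to 75th percentile (band) over up to 500 windows at each distance. The median rises from 8 beside the sparse windows to 13 at 2 Mb, and the dashed line marks the median of 19 over all windows.

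Over all chromosomes together, sparse windows were more frequent in the first 2 Mb and absent from the last 2 Mb, in assembly order. Most of the 500 lay in neither. The first 2 Mb of the 26 chromosomes held 43 of the 500 sparse windows (8.6%) but 2.12% of all windows, while the last 2 Mb, also 2.12% of all windows, held 0 of the 500 and 0 of the 671. The sparse window closest to the last complete window of its chromosome lay 5.4 Mb before it. Most of the 43 windows at the start lay on chromosome 11 (12 windows) or chromosome 20 (13 windows), and only 10 chromosomes had any. Without chromosome 11 the share in the first 2 Mb was 6.73%, with chromosome 20 still included. The median window had 19 regions in the first 2 Mb, the same as over all windows, and 27.5 in the last 2 Mb.

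Regions in the sparse windows were marked in fewer fetuses than regions elsewhere. The median number of fetuses with a peak was 7 for the regions of sparse windows (25th to 75th percentile, 3 to 12) and 8 for the regions of other windows (3 to 14). This was not particular to the 500 windows. The median was 6 both in the tied windows that were not taken and in the windows with 6 regions. A peak in all 16 fetuses was found in 140 of the 1858 regions (7.54%) and in 17.5% of the 490971 regions of the other windows. A peak in 2 fetuses only was found in 343 (18.5%) against 15.9%. Each fetus had a peak in a smaller share of the sparse-window regions, from 29.6% to 64.9% with a median of 48.2%, than of the other regions, from 35.3% to 71.1% with a median of 56.1%. The direction was the same in 16 of 16 fetuses. Since the rule counted regions marked in at least 2 fetuses, these shares are given with no test. Of the 500 windows, 123 had a region marked in all fetuses, and in 30 no region was marked in more than 4.

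**Figure D4:**
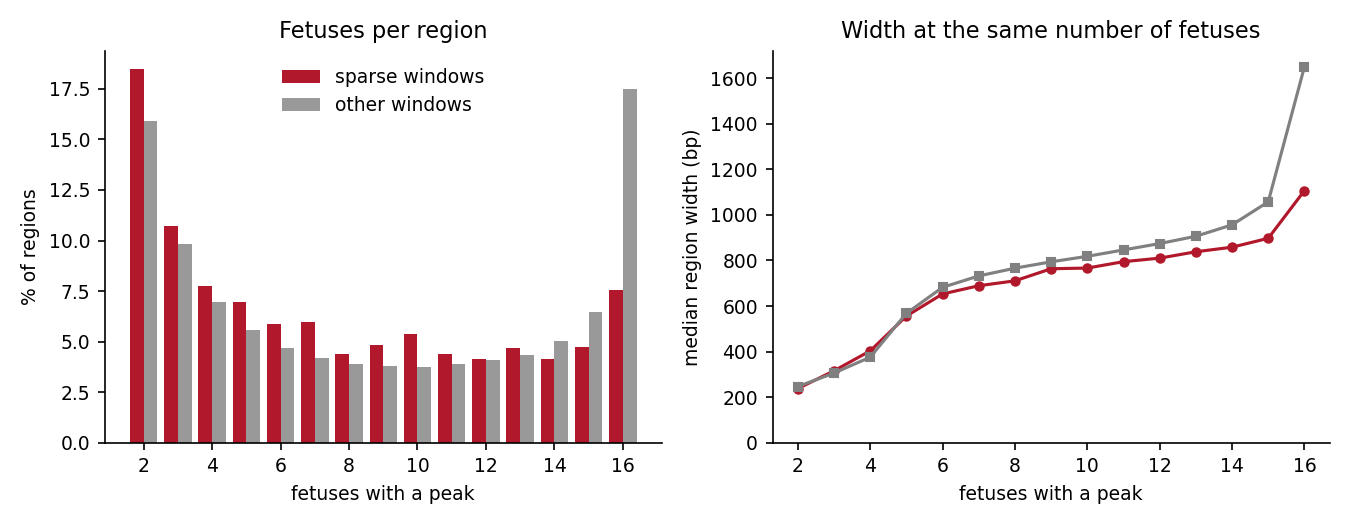
Left, the share of regions (vertical axis, %) by the number of fetuses with a peak (horizontal axis) in sparse windows (red) and other windows (grey). Right, the median width of the regions (bp) at each number of fetuses. Regions marked in all 16 fetuses are 7.54% of the red and 17.5% of the grey distribution, and their median widths are 1106 and 1649 bp.

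Peaks found in a single fetus were also fewer in the sparse windows. The sparse windows held 1912 single-fetus regions, which was 3.82 per window on average against 7.64 in the other windows, and 33 sparse windows had none. Beside each region shared by at least 2 fetuses there were 1.03 single-fetus regions in the sparse and 0.374 in the other windows, a ratio whose lower term the rule kept small in the sparse windows. The 3 sparse windows with the most lay on chromosome 16 from 48200001 to 48300000 with 13 beside 4 shared regions, on chromosome 22 from 1400001 to 1500000 with 12 beside 3, and on chromosome 7 from 70100001 to 70200000 with 11 beside 3. A single fetus contributed between 13 and 404 of the 1912.

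The 10 windows without a shared region were not empty of peaks. They held 32 single-fetus regions, and 1 of them, on chromosome 14 from 27600001 to 27700000, had no peak of any fetus. Of the 10, 4 lay near the start of chromosome 11 and 2 were adjacent on chromosome 20 from 28600001 to 28800000. These had 4 and 5 single-fetus regions.

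The regions of the sparse windows were also narrower. Their median width was 655 bp (300 to 810 bp at the 25th and 75th percentiles), against 767 bp (339 to 1029 bp) elsewhere. At the same number of fetuses with a peak, the median was narrower in the sparse windows in 13 of 15 classes, and the gap was widest among the regions marked in all 16 fetuses, at 1106 bp against 1649 bp. A width of 2 kb or more was reached by 9 of the 1858 regions (0.484%) and by 7.23% of the others. All 9 had a peak in every fetus. The peaks of each fetus before merging had median widths of 230 to 264.5 bp in the sparse windows and 249 to 532 bp elsewhere, narrower in 16 of 16 fetuses. Wide regions join peaks that would otherwise be counted apart, so width and the count of the rule are linked and no test was made.

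Peak scores were lower in the sparse windows, but not at the same number of marked fetuses. A score, −log10 of the p-value deposited for each peak, was scaled between fetuses and taken as log2(score + 1). Over the regions in which a fetus had a peak, its median averaged 1.3 ± 0.112 (SD, n = 16) in the sparse windows and 1.4 ± 0.0861 in the others. The paired difference, sparse minus other, was -0.0982 ± 0.0308 (SD, n = 16) on the log2 scale and was negative in 16 of 16 fetuses (exact sign-flip permutation test over fetuses, two-sided, p = 3.05e-05, the smallest that 16 fetuses allow). The score did not enter the rule directly, although it comes from the same peak calls. It went with the number of marked fetuses, which is linked to the rule. In the sparse windows the median score was 1.27 at regions marked in 2 fetuses and 2.48 at regions marked in 16. The highest score of a fetus in a region was taken, and wide regions can join more peaks, so the score is also linked to width. With the mean score per region the difference was -0.0779. The test therefore does not separate the score from the number of marked fetuses or from width, which are both linked to the rule. The direction turned when regions with the same number of marked fetuses were compared. The difference was then 0.0196 ± 0.0275 (SD, n = 16), negative in 4 of 16 fetuses (same exact test, p = 0.0129).

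**Figure D5:**
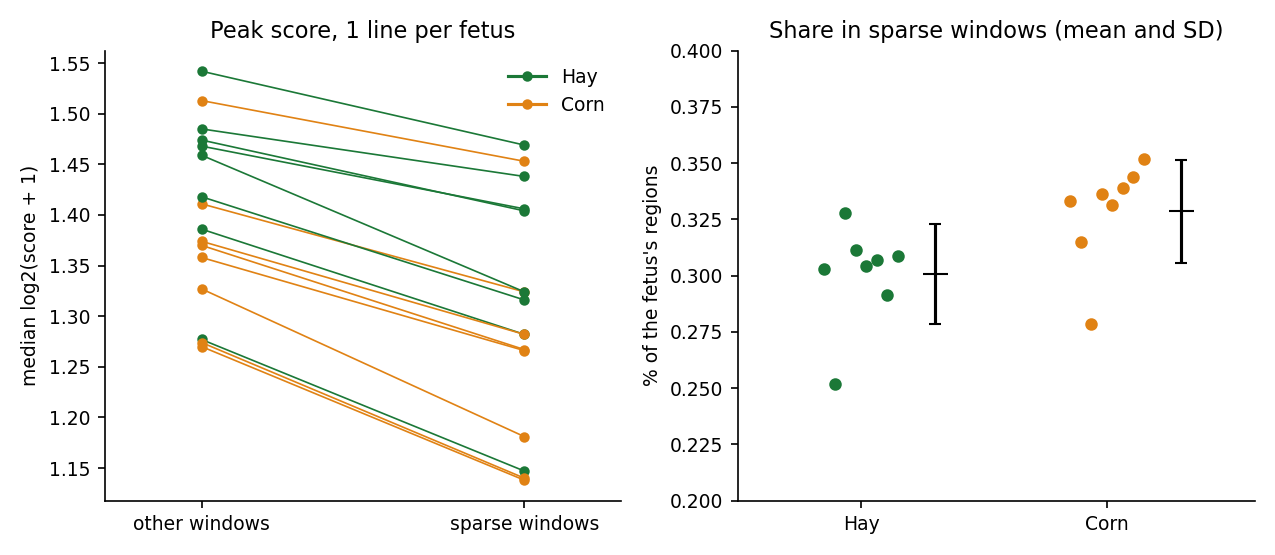
Left, the median log2(score + 1) of each fetus (vertical axis) over regions in other and in sparse windows, with 1 line per fetus, green for hay and orange for corn. Right, the share of each fetus's regions that lay in sparse windows (vertical axis, %, starting at 0.2), with the mean and SD of 8 fetuses beside the points. All 16 lines fall, and the share averages 0.301% in hay and 0.329% in corn with overlapping points.

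The only region of a sparse window was marked in more fetuses at the median than regions with others in their window, with no test made. Such a lone region can still lie close to a region of the next window. The median number of marked fetuses was 9 in windows with 1 region, 6 in windows with 2 or 3, and 7 in windows with 4 or 5. A peak in all 16 fetuses was found in 4 of the 23 lone regions (17.4%). In windows with 2 to 5 regions the share was 6.77% to 8.87%. The median width lay between 603 and 689 bp over these 5 groups and the median score between 1.34 and 1.39. Single-fetus regions numbered 2.52 per window with 1 region and 4.38 per window with 5.

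The 23 windows with 1 region lay on 12 chromosomes, and 6 of them on chromosome 11. The lone regions were 156 to 2371 bp wide and had a peak in 2 to 16 fetuses. In 4 windows every fetus had the peak, and in 5 windows at most 3 fetuses did. The strongest lone region, on chromosome 24 from 19601136 to 19602030, was marked in all 16 fetuses and had a median score of 18.3, while the median over the 23 was 1.34. The widest lay on chromosome 13 from 42663787 to 42666158, also with a peak in all 16, and a median score of 2.55. Hay fetuses had a peak in 9 to 13 of the 23 regions (median 11.5) and corn fetuses in 10 to 18 (median 14.5).

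A few regions in the sparse windows had very high scores. Of the 140 marked in every fetus, 11 (7.86%) had a median score over 10, a level chosen after the values were seen, against 0.695% of the 85883 such regions of the other windows. The medians were close, at 2.48 and 2.4.

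The strongest lay on chromosome 11 from 917170 to 918572, in a window with 5 regions within the first run of 9. The deposited p-value was 0 in 3 of 8 hay and 7 of 8 corn fetuses, which were set to a score of 100 before scaling, and in the other fetuses the unscaled score ranged from 29.5 to 46.9. It was the only region of the sparse windows with p-values of 0. The diets overlapped there, and because most values stood at the limit, its scaled scores were not compared.

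The other 4 strongest regions had no p-value of 0, and their scores spread within each diet. On chromosome 8 from 42537638 to 42539393 the scaled score had a lowest, median and highest value of 32.5, 36.6 and 42.5 in hay and 28.6, 37.3 and 38.8 in corn. On chromosome 21 from 37619872 to 37628815, a region of 8943 bp in a run of 5 sparse windows, the values were 23.9, 28.5 and 34.2 in hay and 19.1, 32.1 and 37.8 in corn. On chromosome 24 from 19114784 to 19116260 they were 24.6, 28.0 and 36.8 in hay and 22.7, 30.1 and 38.9 in corn. All 3 regions had overlapping diets. The region on chromosome 20 from 27603579 to 27611929, 8350 bp wide, had 12.8, 21.1 and 29.2 in hay and 17.9, 20.7 and 29.5 in corn. Differences between diets at these 4 regions (hay minus corn) lay between -0.101 and 0.0261 on the log2 scale, and the limma p adjusted over all regions was 1 for each.

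Maternal diet was the comparison of the study, and it did not enter the choice of windows. Fetuses from corn-fed ewes had 0.329 ± 0.0229% (SD, n = 8) of their regions in the sparse windows and fetuses from hay-fed ewes 0.301 ± 0.0222%. The lowest, median and highest shares were 0.252%, 0.306% and 0.328% in hay and 0.279%, 0.334% and 0.352% in corn, so the diets overlapped, with 6 corn fetuses above the highest hay fetus. The difference had p = 0.0231 in the exact permutation test (two-sided, 12870 assignments of fetuses) and an adjusted p of 0.139 over the 6 measures compared by the same exact test, and so did not pass the correction. As a number, hay fetuses had a peak in 828.5 ± 186.4 sparse-window regions (SD, n = 8) and corn fetuses in 921 ± 146.4 (exact permutation test, p = 0.289, adjusted p = 0.381). Peaks outside the sparse windows had median widths of 293.2 ± 39.0 bp (SD, n = 8) in hay and 365.4 ± 97.7 bp in corn. Whether peak width had a part in the share was not tested.

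The other measures did not separate the diets beyond the spread between fetuses. In the sparse windows the median log2(score + 1) averaged 1.35 ± 0.104 (SD, n = 8) for hay, and for corn it averaged 1.26 ± 0.105 (exact permutation test, p = 0.0985, adjusted p = 0.296), and in the other windows it was 1.44 ± 0.0799 in hay and 1.36 ± 0.0784 in corn. Without scaling, the difference in the sparse windows (hay minus corn) turned from 0.0919 to -0.0434. Hay fetuses had a peak in 412.5 ± 36.0 of the 500 windows (SD, n = 8) and corn fetuses in 435.9 ± 23.1 (exact permutation test, p = 0.149, adjusted p = 0.299). The median width of the peaks there was 245.5 ± 6.95 bp for hay against 250.1 ± 10.3 bp for corn (exact permutation test, p = 0.318, adjusted p = 0.381). Single-fetus regions in the sparse windows numbered 142.8 ± 130.9 per hay fetus and 96.2 ± 91.9 per corn fetus (exact permutation test, p = 0.439, adjusted p = 0.439).

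Region by region, 0 of the 1858 regions differed between diets at a limma p under 0.1 adjusted over all 512238 regions, where 0.000586% of all regions were called. The smallest adjusted p among them was 0.919. Only 3 regions of the whole series were called, so the 0 does not show that the sparse windows lack diet differences. The study reported differential regions from aligned reads with DiffBind and edgeR, whereas the scores here come from peak p-values. The 2 results are therefore not on the same measure. At an unadjusted limma p under 0.05, 14 regions (0.753%) were higher in hay, against 1.43% of all regions, and 43 (2.31%) were higher in corn, against 1.73% of all regions. The split depended on the scaling, since without it 5 were higher in hay and 110 in corn. Hay was therefore the higher diet in 24.6% of these regions with scaling and in 4.35% without, and over all regions in 45.3% and 12.7%. The median difference (hay minus corn) was -0.0146 over the sparse-window regions and 0.0157 over all regions on the log2 scale, and -0.0902 and -0.0470 without scaling. Peaks in hay fetuses only were found in 93 regions (5.01%), against 6.1% of all regions, and in corn fetuses only in 102 (5.49%), against 3.4%. Regions marked in at least 4 fetuses of 1 diet and none of the other numbered 2 of the 1858 for hay and 8 of the 1858 for corn. Among all 512238 regions the numbers were 1703 for hay and 1316 for corn. Nothing is read from counts as small as 2 and 8.

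The smallest limma p, 0.000421, was at the widest region of the sparse windows, 9015 bp on chromosome 3 from 89834096 to 89843111, which every fetus had. Its scaled score had a lowest, median and highest value of 7.99, 9.35 and 11.6 in hay and 8.06, 13.3 and 16.2 in corn, so most corn fetuses were higher and the diets overlapped. On the log2 scale the means were 3.39 ± 0.167 (SD, n = 8) in hay and 3.76 ± 0.292 in corn, a difference of -0.369 (limma, adjusted p = 0.919).

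On chromosome 13 from 46804475 to 46805233 all 8 hay fetuses but 4 corn fetuses had a peak. The values were 1.03, 2.05 and 2.37 in hay and 0, 0.592 and 2.05 in corn, with a log2 difference of 0.886 (limma across all regions, adjusted p = 0.919). On chromosome 3 from 185493616 to 185494010 the pattern was opposite, with a peak in 3 hay and all 8 corn fetuses and a log2 difference of -0.921 (limma across all regions, adjusted p = 0.919). Scores there were 0 to 2.18 in hay (median 0) and 1.12 to 2.84 in corn (median 1.62).

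The region on chromosome 9 from 10856960 to 10858763 was marked in all 16 fetuses and had 9.38, 11.4 and 16.8 in hay and 8.26, 15.7 and 20.7 in corn, with a log2 difference of -0.324 (limma across all regions, adjusted p = 0.919). On chromosome 21 from 38431329 to 38431951, in a run of 4 sparse windows, 6 hay fetuses and 0 corn fetuses had a peak. Its scores were 0 to 1.92 in hay (median 1.42), and the log2 difference was 1.01 (limma across all regions, adjusted p = 0.919). The unadjusted limma p of the 4 regions after the widest ran from 0.000907 to 0.00439. None of the 5 passed the adjustment, and a score of 0 says only that no peak was called in that fetus.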

How the data were processed

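Per the labels and the methods of the study, the authors used Trimmomatic 0.33 for trimming, BWA-mem 0.7.15 for alignment against Oar_v3.1, Picard 1.107 against duplicates, and ChIPseeqer to call the peaks of every fetus. The authors deposited 1 list of peaks per fetus, with a position and 1 value from 0 to 0.135, which was taken to be its p-value. The threshold and any input control are not given in the sources used here, and without read counts no depth or counting interval was computed.

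Peaks were merged and counted as described in the report. The highest score of a fetus in a region was divided by a factor (0.765 to 1.38) from median ratios over the 88488 regions marked in all fetuses, and log2(score + 1) was 0 without a peak. P-values of 0 were set to 1e-100. Diets were compared region by region with limma 3.58.1 in R 4.3.3 (eBayes with trend, Benjamini-Hochberg over all regions, threshold 0.1). The fit was tried on real regions with their values shuffled between fetuses and shifts added to some, and the outcome is not given here. Per fetus, exact permutation tests were made in Python 3.11.15 (numpy 2.4.6, pandas 2.3.3). Regions were named by rule: the 5 with the highest median score among those marked in all fetuses, the 5 with the smallest limma p, the widest, the 3 longest runs and the 3 windows with the most single-fetus regions. The windows, measures and rules were chosen with earlier results of these data known. Other regions named were chosen after their values were seen. Chromosome X, with 19048 regions, and incomplete windows were left out by the rule. Sequence and gene annotation were not used here.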

Additional observations from a re-analysis of the deposited data

Results flagged for a closer look

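Over 34 groups of 8 fetuses (measures per fetus and scores at named regions, each in both diets), 3 values lay apart from the rest of their diet by Dixon's criterion, where chance flags about 5% of groups. All 3 came from the corn fetus labelled replicate 4. Its peaks in the sparse windows had a median width of 230 bp, the lowest of the corn fetuses. Its log2(score + 1) was 5.28 at the strongest region on chromosome 11 from 917170 to 918572, but the other 7 corn fetuses had a p-value of 0 there and were set to a score of 100 before scaling, so the size of this gap was set by that limit and nothing is read from it. At the region on chromosome 8 from 42537638 to 42539393 its log2(score + 1) was 4.885, below all other fetuses. Outside the sparse windows this fetus also had the narrowest peaks of the corn fetuses, with a median of 249 bp. Without it, the share of regions in the sparse windows differed by -0.0351 percentage points between diets (hay minus corn, exact permutation test, p = 0.00109), and the median log2 score by 0.12 (exact permutation test, p = 0.0277). These p-values were not corrected. This fetus had the lowest share (0.279%) and the highest median log2 score (1.45) of the corn fetuses, so leaving it out widened both differences. Without hay replicate 5, the lowest in share (0.252%), the share differed by -0.0209 (exact permutation test, p = 0.0476, not corrected).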

How the results depend on the processing

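The number of regions in the sparse windows depended on how windows were drawn. It was 500 with windows of 50000 bp, 5681 with windows of 200000 bp, 3119 when a peak in 1 fetus sufficed, 1206 with peaks above the 25th percentile of scores, 1322 with a peak in at least 3 fetuses, 1812 with windows shifted by 50000 bp and 2713 with all tied windows. The shifted windows covered 19.7 of the 50 Mb described here. The score difference between sparse and other windows kept its sign except at the same number of fetuses (0.0196), and ranged from -0.102 to -0.0949 when single fetuses were left out. The diet difference in score became -0.0434 (exact permutation test, p = 0.0567) without scaling, and ranged from 0.0747 to 0.121 without single fetuses. Its p was under 0.05 without corn replicate 4 or hay replicate 5 (exact permutation test, p = 0.0277 and p = 0.0261, not corrected). The diet difference in share ranged from -0.0351 to -0.0209 without single fetuses (exact permutation test, p = 0.00109 to p = 0.0488, not corrected), and taken as a number of regions it was -92.5 (p = 0.289, exact). Windows chosen from hay by a peak in at least 1 fetus gave corn fetuses 16.8% of the peaks elsewhere. The cause of these changes was not tested. No alternative gave a region of the sparse windows at an adjusted limma p under 0.1, and the count at an unadjusted p under 0.05 was 115 without scaling, 91 without hay replicate 11 and 51 to 77 in the other alternatives. The smallest adjusted p among them ranged from 0.101 without scaling to 1. Leaving out the first 4.2 Mb of chromosome 11, chosen after seeing the data, turned no direction. No paired analysis between diets was made, because the hay and corn fetuses came from different ewes.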
